A study of Mus musculus with 288 samples.

Results

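Ager, Aqp5, Hopx, Emp2 and Pdpn, genes widely used as markers of the alveolar type 1 (AT1) cell, were followed through single secretory lineage cells of the mouse lung. These 5 genes were taken by name from a count table of 24781 genes, and all 5 have a row in it. Wells were sorted from C57BL/6 mice of 4 months with the genotype Scgb1a1-CreER;Rosa26-mTmG. In these animals the promoter of Scgb1a1, a club cell gene, drives an inducible recombinase that switches a fluorescent reporter, so a labelled cell is one that expressed Scgb1a1 at the time of induction, or a descendant of one. The gate took Epcam-positive epithelial cells that lacked CD45 and CD31, were low in CD24 and carried the label. The table covers 286 sorted wells of 1 cell each and 2 negative controls. The labels name no animal, so all cells were treated as 1 sample. There is therefore no replicate check and no p-value, and every interval covers counting error only.

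The kept wells were the 227 whose total exceeded 2340 counts, 10 times that of the higher control. They fell into 3 classes. In 63 Sftpc wells, surfactant protein C, the hallmark transcript of alveolar type 2 (AT2) cells, made up at least 1% of the total. In 74 Scgb3a1 wells, the secretoglobin Scgb3a1 did so. The 90 remaining wells reached neither limit, and 0 wells reached both. All 3 classes share strain, age, genotype and gate. Median totals were 3529 counts in Sftpc wells, 6940.5 in Scgb3a1 wells and 5406 in remaining wells, and the total over kept wells was 1259118 counts. Scgb1a1 had a count in each kept well, but in 24 of the 63 Sftpc wells it did not exceed 20 counts, the most that a control held. The classes were also uneven over the 3 successive sets of 96 columns in the table, which no label describes as plates. Those sets held 6, 17 and 40 Sftpc wells, 38, 31 and 5 Scgb3a1 wells, and 38, 33 and 19 remaining wells. Classes can therefore be compared within a set only from few wells in some places, and the ratios of the members within sets are given beside their values. Because the members are not in the rule that made the classes, differences of the members between classes do not follow from it directly.

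AT1 cells are the thin, flat cells that form most of the gas exchange surface of the alveolus. They are renewed from AT2 cells, and in the mouse labelled secretory cells can also give rise to alveolar cells after injury. The 5 markers do unlike things. Ager encodes RAGE, a receptor of the immunoglobulin superfamily that sits in the basal membrane of AT1 cells and binds S100 proteins and HMGB1. Aqp5 encodes a water channel of the apical membrane that airway and gland cells also make. Hopx encodes an atypical homeodomain protein that binds no DNA itself and works through partners such as SRF, GATA6 and histone deacetylases. Emp2 encodes a membrane protein of the PMP22 family with 4 membrane spans, which bears on integrins and caveolins. Pdpn encodes podoplanin, a mucin-like glycoprotein that lymphatic endothelial, mesothelial and some basal cells also carry, and whose tail binds the linker proteins ezrin and moesin.

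On GRCm38, the assembly of the mm10 build, with GENCODE M21 gene limits, Ager lies at chr17:34597862-34600936 on the plus strand and Aqp5 at chr15:99590782-99594829 on the plus strand. Emp2 lies at chr16:10281749-10313968, Hopx at chr5:77086988-77115121 and Pdpn at chr4:143267431-143299564, all on the minus strand. Hopx shares 7772 bases with Hopxos, an antisense gene on the opposite strand. Hopxos has no row in the table and the counts are not stated to use strand, so reads of the antisense gene cannot be told apart from reads of Hopx. No other annotated gene overlaps a member.

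RefSeq promoter windows were matched for all 5 members by symbol, 6 windows in all, Hopx having a pair. The 250 bases before the start site are printed for Ager and Emp2, the members that were higher in Sftpc wells, and for Pdpn, which was counted almost wholly in Scgb3a1 wells. Capitals mark a match, on either strand, to the GC box GGGCGG. The windows, on GRCm38.p6 and each read 5′ to 3′ along its gene, are chr17:34597600-34597849 for Ager on the plus strand, chr16:10313969-10314218 for Emp2 on the minus strand and chr4:143299565-143299814 for Pdpn on the minus strand.

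Ager: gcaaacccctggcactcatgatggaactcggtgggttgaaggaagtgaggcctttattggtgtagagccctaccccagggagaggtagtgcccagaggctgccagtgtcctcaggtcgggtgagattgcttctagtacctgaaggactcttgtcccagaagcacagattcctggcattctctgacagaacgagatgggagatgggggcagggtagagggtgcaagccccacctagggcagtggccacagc
Emp2: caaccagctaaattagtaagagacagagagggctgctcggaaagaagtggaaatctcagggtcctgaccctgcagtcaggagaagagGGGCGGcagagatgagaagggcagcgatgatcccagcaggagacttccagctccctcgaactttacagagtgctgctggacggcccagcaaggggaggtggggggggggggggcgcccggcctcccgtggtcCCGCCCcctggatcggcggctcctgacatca
Pdpn: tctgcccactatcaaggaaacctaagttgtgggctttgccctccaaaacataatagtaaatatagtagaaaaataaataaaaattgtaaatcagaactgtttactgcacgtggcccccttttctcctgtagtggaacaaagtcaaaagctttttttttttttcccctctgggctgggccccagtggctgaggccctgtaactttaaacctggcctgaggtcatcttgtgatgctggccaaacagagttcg

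The promoter windows differed in base composition, and no motif searched was common to them all. Over whole windows of 300 bases, which run 50 bases past the start, GC content was 58.3% for Ager, 65.7% for Emp2, 48.7% for Pdpn, 79.7% for Aqp5, and 53.0% and 59.0% for the windows of Hopx, against a median of 52.7% over all 32851 windows. GGGCGG, searched on both strands, was found 4 times in the window of Emp2, 3 times in that of Aqp5 and 2 times in that of Pdpn, and 35.7% of all windows held it. Neither Ager nor Hopx had a match. CAAGTG, a core sequence bound by NKX2 factors, was found once, in the inner window of Hopx, and 13.6% of all windows held it. GGAATG, the TEAD core, and TATAAA were found in none of the 6 windows, where 14.7% and 13.6% of all windows held them. A match is a run of letters and says nothing here of binding.

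Over the 227 kept wells each of the 5 members was counted, and none had a count in either negative control. Ager had 311 counts and was found in 98 wells (43.2%). Aqp5 had 292 counts in 146 wells (64.3%), the most wells of any member. Hopx had 159 counts in 90 wells, Emp2 105 counts in 73 wells and Pdpn 117 counts in 50 wells. The controls were shallow, at 41 and 234 counts, so their zeros bound little.

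The members did not follow one class. Ager and Emp2 were highest in Sftpc wells, Hopx in remaining wells and Pdpn in Scgb3a1 wells, while Aqp5 was counted in at least 56.7% of the wells of every class. Levels are given as pooled CPM, the counts of a gene for every 1000000 counts of a class. A gene was called higher or lower where 2 classes differed by at least 2-fold and together held at least 20 counts. Of the 4 members measured in Sftpc wells over remaining wells, 2 were higher, 1 was lower and 1 was neither. Over all 3854 genes measured in that comparison, 17.4% were higher, 9.68% were lower and 27.1% were either. In Scgb3a1 wells over remaining wells 1 of the 5 members was higher, 2 were lower and 2 were neither, beside 8.13% higher, 9.24% lower and 17.4% either among 4536 genes. The median log2 ratio of the members was 1.44 over the 4 measured in the first comparison and -0.73 over the 5 in the second, against medians over all genes of 0.18 and -0.02. Both comparisons share the remaining wells.

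**Figure D1:**
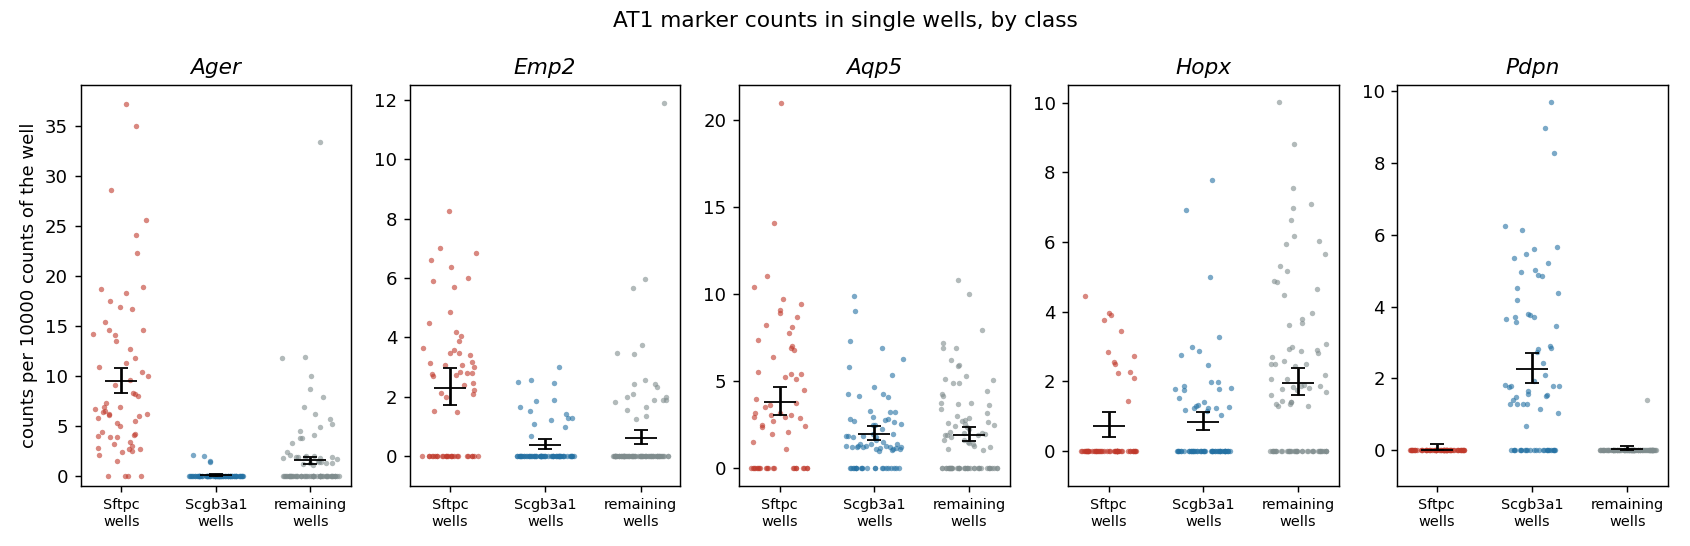
Counts of each member per 10000 counts of the well (vertical axes, linear, each with its own range) in 63 Sftpc wells, 74 Scgb3a1 wells and 90 remaining wells. Each point is a well, spread sideways at random; the horizontal dash is the pooled level of the class and its bar the 95% Poisson interval. Ager and Emp2 stand highest in Sftpc wells, Hopx in remaining wells, and Pdpn lies on 0 in all Sftpc wells.

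Ager, the receptor RAGE, was nearly universal in Sftpc wells and nearly absent from Scgb3a1 wells. Single Sftpc wells held 0 to 14 Ager counts with a median of 2, single Scgb3a1 wells 0 to 1 with a median of 0, and single remaining wells 0 to 10 with a median of 0. The ranges of Sftpc wells and remaining wells overlapped, but 59 of 63 Sftpc wells held a count (93.7%), against 35 of 90 remaining wells (38.9%). In Scgb3a1 wells 4 of 74 held a count (5.41%), each of them a single count. The pooled level was 951 CPM in Sftpc wells (832 to 1083), 7.79 CPM in Scgb3a1 wells (2.12 to 20.0) and 154 CPM in remaining wells (122 to 193).

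The Ager ratio of Sftpc wells over remaining wells was 6.16 (4.75 to 8.08). The ratio of Scgb3a1 wells over remaining wells was 0.0505 (0.0134 to 0.135), a log2 ratio of -4.31. At an equal depth of 3151 counts, which 44 Sftpc, 74 Scgb3a1 and 86 remaining wells reached, the expected share of wells with an Ager count was 87.5%, 2.93% and 27.6% in those classes. Scgb3a1 wells were the deepest and held the least Ager. Within the 3 sets of columns Ager stood at 566, 874 and 1081 CPM in Sftpc wells, and at 95.1, 127 and 364 CPM in remaining wells. The ratio was 5.95, 6.88 and 2.97 there, so the last set gave less than the value over all sets, with the direction kept. For Scgb3a1 wells over remaining wells the ratio was 0.0444, 0.0628 and 0.107 within the sets, from 1, 2 and 1 Ager counts in Scgb3a1 wells.

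Ager was also counted in remaining wells that held no Sftpc count. The 45 remaining wells with 0 Sftpc counts held 38 Ager counts, 159 CPM (113 to 218), in 17 wells. The 37 wells with 1 or 2 Sftpc counts held 18 Ager counts, 78.8 CPM, in 12 wells. The 8 wells with 3 or more held 22 Ager counts, 582 CPM, in 6 wells, and 10 of these came from a single well, cell 267. For each 100 Sftpc counts there were 0.625 Ager counts in Sftpc wells, 8.33 in Scgb3a1 wells and 54.9 in remaining wells. The Sftpc limit fell in a gap, with cell 267 just outside it at 0.734% Sftpc, 10 Ager, 3 Aqp5 and 3 Hopx counts, and cell 43 just inside it at 2.07% with 7 Ager and 5 Emp2 counts.

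The wells of most Ager counts were all Sftpc wells of the last set. Cell 194 held 14 Ager counts of a total of 7395, with 653 Sftpc and 1456 Scgb1a1 counts. Cell 198 held 12 of 3223 and cell 284 held 11 of 3142, with 272 and 14 Scgb1a1 counts. High Ager was thus found both in wells rich in Scgb1a1 and in a well whose Scgb1a1 was no higher than in a control. Over the 39 Sftpc wells with Scgb1a1 above the controls Ager was at 877 CPM, against 1104 CPM in the 24 without, a ratio of 0.794 (0.604 to 1.05) whose interval includes 1.

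Emp2, the PMP22 family protein, was higher in Sftpc wells as Ager was, with fewer counts. Single wells held 0 to 5 Emp2 counts with a median of 1 in Sftpc wells, 0 to 2 with a median of 0 in Scgb3a1 wells, and 0 to 4 with a median of 0 in remaining wells. The ranges overlapped, and the difference lay in how many wells held any. A count was found in 37 of 63 Sftpc wells (58.7%), 15 of 74 Scgb3a1 wells (20.3%) and 21 of 90 remaining wells (23.3%), or 51.3%, 9.87% and 16.8% at equal depth. The pooled level was 229 CPM (172 to 298) in Sftpc wells, 37.0 CPM in Scgb3a1 wells and 61.4 CPM (41.7 to 87.1) in remaining wells.

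The Emp2 ratio of Sftpc wells over remaining wells was 3.72 (2.36 to 5.99). It depended on the set of columns. In the last set Emp2 was at 258 CPM in Sftpc wells and 188 CPM in remaining wells, a ratio of 1.37 that is no longer 2-fold, while the first and middle sets gave 4.33 and 8.98. Of the 31 Emp2 counts of the remaining wells, 16 came from the 19 wells of that last set. One of them, cell 230, held 4 Emp2 counts with 0 Sftpc and 24 Scgb1a1 counts. Emp2 in Scgb3a1 wells over remaining wells was neither higher nor lower, at 0.603 (0.322 to 1.10), and it went both ways between sets, at 0.307 in the first and 3.30 in the middle set, from 4 against 11 and from 15 against 4 counts. In the last set Scgb3a1 wells held 0 Emp2 counts against 16, at most 0.859 of the level in remaining wells by the counting interval. The ratio was 1.09 without the last set, and it passed 2-fold, as lower, without the middle set, at 0.161, and with equal weight of wells, at 0.488.

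Hopx, the atypical homeodomain protein, ran the other way and was highest in remaining wells, those with neither surfactant protein C nor Scgb3a1 at the limit. Single wells held 0 to 2 Hopx counts with a median of 0 in Sftpc wells, 0 to 5 with a median of 0 in Scgb3a1 wells, and 0 to 5 with a median of 1 in remaining wells. A count was found in 13 of 63 Sftpc wells (20.6%), 26 of 74 Scgb3a1 wells (35.1%) and 51 of 90 remaining wells (56.7%). At equal depth these shares were 19.0%, 19.7% and 42.0%, so the shares of Sftpc wells and Scgb3a1 wells were then close. The pooled level was 70.6 CPM (41.1 to 113) in Sftpc wells, 83.8 CPM (60.6 to 113) in Scgb3a1 wells and 196 CPM (159 to 239) in remaining wells.

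The Hopx ratio to remaining wells was 0.360 (0.202 to 0.607) for Sftpc wells and 0.428 (0.292 to 0.618) for Scgb3a1 wells, log2 ratios of -1.47 and -1.23. The first rests on 17 counts. Within the sets Hopx was at 179, 74.1 and 43.0 CPM in Sftpc wells and at 130, 227 and 270 CPM in remaining wells. The 6 Sftpc wells of the first set therefore turned the direction, at a ratio of 1.37 from 6 against 26 counts. The ratio was 0.222 without the first set. The 2-fold call was also lost without the last set, at 0.602, and among wells above 4000 counts, at 0.581. For Scgb3a1 wells the call was lost within the first set, at 0.584, with the direction kept. Of the 17 Hopx counts in Sftpc wells, 15 came from wells with Scgb1a1 above the controls, 92.7 CPM against 25.4 CPM in the others, a ratio of 3.65 with a wide interval (0.849 to 32.9). The 8 wells with ciliated markers, 7 of them remaining wells, held 11 Hopx counts, and leaving them out kept the ratio to Sftpc wells at 0.368.

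Pdpn, podoplanin, was counted almost only in Scgb3a1 wells, which held 116 of its 117 counts. Single Scgb3a1 wells held 0 to 9 Pdpn counts with a median of 1, and 49 of 74 held a count (66.2%). In Sftpc wells there were 0 counts in 63 wells, which at 3 counts or wells allows up to 12.5 CPM and up to 4.76% of wells with a count. At their median total of 3529 counts this limits wells with a count, not cells that express the gene. In remaining wells there was 1 count, in 1 of 90 wells. The pooled level was 226 CPM (187 to 271) in Scgb3a1 wells and 1.98 CPM (0.0501 to 11.0) in remaining wells, a ratio of 114 (20.1 to 4549) from 116 against 1 counts. No fold is given for Sftpc wells over remaining wells, where both are under 3 counts.

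The single Pdpn count of a remaining well lay in cell 24, which held 63 Scgb3a1 counts, 0.876% of its total, and was the remaining well closest to the limit. Just inside the limit stood cell 17 at 1.01% and cell 1 at 1.02%. With the limit at 0.5% that well joined the Scgb3a1 wells, which then held 117 Pdpn counts against 0. The ratio was 37.1 with the 0 read as 3 counts, and at least 29.7 by the counting interval. With the limit at 2% the ratio was 15.2. At equal depth 45.8% of Scgb3a1 wells were expected to hold a Pdpn count. Within the sets Pdpn was at 198, 264 and 117 CPM in Scgb3a1 wells, the last from 3 counts in 5 wells, and at 5.01, 0 and 0 CPM in remaining wells. Without the middle set the ratio was 54.2. Without the first set, where cell 24 lies, remaining wells held 0 Pdpn counts. The ratio was then 25.4 with the 0 read as 3 counts, and at least 20.1 by the counting interval. The wells of most Pdpn counts, cell 129 with 9 counts of 9282 and cells 189 and 178 with 5 each, held 0, 1 and 1 Sftpc counts. In all, 4 wells tied at 5 Pdpn counts each, all of them Scgb3a1 wells.

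Cells other than secretory cells that carry podoplanin were looked for by their own markers. All 4 lymphatic endothelial markers, Prox1, Lyve1, Ccl21a and Mmrn1, were at 0 in all 3 classes. Of the 4 mesothelial markers Upk3b, Wt1 and Lrrn4 were at 0 in all classes, while Msln had 0 counts in Sftpc wells, 53 in Scgb3a1 wells and 1 in remaining wells. The 4 fibroblast markers summed to 0, 2 and 0 counts in those classes. Among basal markers Krt5, Krt14 and Ngfr were at 0 in all classes. Trp63 was at 0 in Sftpc wells and remaining wells. In Scgb3a1 wells Krt15 and Aqp3 made up nearly all of the 136 counts of the basal list, and Trp63 only the rest. Both measured genes of the basal list were higher in Scgb3a1 wells, beside 8.13% of all genes. Krt15 had 107 counts there and 8 in remaining wells, 13.2-fold higher (6.45 to 31.3), and Aqp3 had 28 against 0 counts. The basal list as a whole summed to 0 to 5594 CPM in single Scgb3a1 wells, 0 to 198 CPM in single Sftpc wells and 0 to 190 CPM in single remaining wells. The part of wells with Krt15, Aqp3 or Msln in the Pdpn level was not tested.

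Aqp5, the water channel, was the member shared by all classes. Single wells held 0 to 6 Aqp5 counts in Sftpc wells, 0 to 6 in Scgb3a1 wells and 0 to 5 in remaining wells, each with a median of 1, so the classes overlapped over nearly their whole range. A count was found in 42 of 63 Sftpc wells (66.7%), 53 of 74 Scgb3a1 wells (71.6%) and 51 of 90 remaining wells (56.7%). At equal depth the shares were 61.9%, 43.5% and 41.4%, so the order of the first pair turned round. The pooled level was 382 CPM (308 to 469) in Sftpc wells, 199 CPM (162 to 241) in Scgb3a1 wells and 194 CPM (157 to 236) in remaining wells.

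The Aqp5 ratio of Sftpc wells over remaining wells was 1.97 (1.47 to 2.65), just under the 2-fold rule. It passed the rule with a class limit of 0.5%, at 2.07, and among wells above 4000 counts, at 2.05, and within the sets it was 1.92, 1.93 and 1.28. For Scgb3a1 wells over remaining wells it was 1.02 (0.769 to 1.37), with 1.25, 1.08 and 0.947 within the sets, an interval over all sets that holds the difference below 2-fold either way as far as counting error goes. Aqp5 was high in wells of each class. Cell 16, an Sftpc well, held 6 Aqp5 counts with 5 of Ager, while cells 171 and 34, Scgb3a1 wells, held 6 and 5 with 0 of Ager and with 1 and 4 of Pdpn. A count of 5 was shared by 5 wells, of which 2 were Sftpc wells, 2 Scgb3a1 wells and 1 a remaining well.

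The scaling of the totals moved the comparison with Sftpc wells. TMM factors, which centre on genes of middling change, moved the median log2 ratio of all genes by -0.32 there. Leaving 5 abundant genes, Scgb1a1, Scgb3a1, Scgb3a2, Sftpc and Rn45s, out of the totals moved it by -0.23. Of the genes past 2-fold, 64.3% were higher as reported, 44.2% with TMM factors and 49.3% without those abundant genes. Under TMM factors the ratios of Sftpc wells over remaining wells were 4.94 for Ager, 2.99 for Emp2, 1.58 for Aqp5 and 0.289 for Hopx, which left each member's call as it was.

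**Figure D2:**
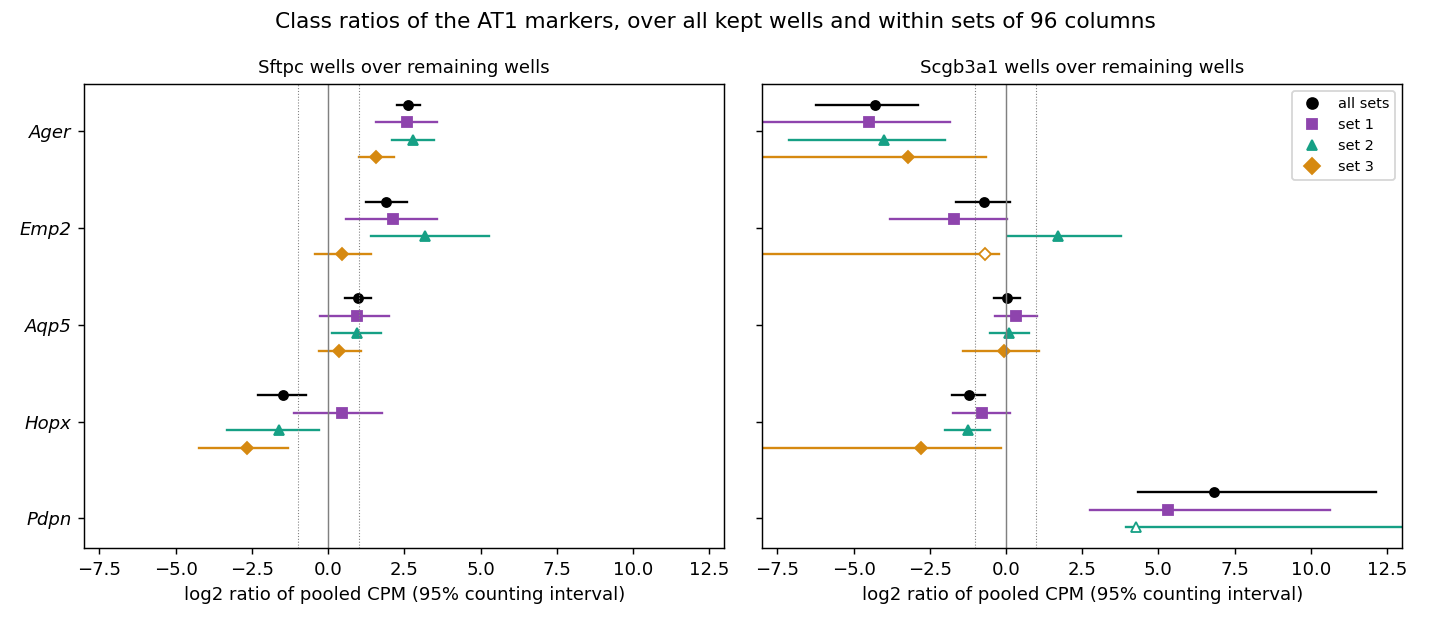
Log2 ratio of pooled CPM for each member, Sftpc wells over remaining wells (left) and Scgb3a1 wells over remaining wells (right), over all sets and within each set of 96 columns. Bars are 95% counting intervals, cut at the edge of the axis. Open symbols are ratios with a count of 0 read as 3 counts. Dotted lines mark 2-fold, and no ratio is drawn where both classes had at most 3 counts. Ager keeps its direction in every set, Hopx in Sftpc wells turns in the first set at 1.37, and Emp2 in Sftpc wells falls to 1.37 in the last.

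Whether the markers met in the same cells was then asked for the 10 pairs. The number of wells with a count of both was set beside the product of the single shares, first over all kept wells and then within each class and summed. The pair seen least was Ager with Pdpn. Of 98 wells with Ager and 50 with Pdpn, 1 held both, where the product over all wells was 21.6 and the sum within classes 3.04. That well was cell 120, a Scgb3a1 well of 6691 counts with 1 Ager, 1 Aqp5, 2 Hopx, 2 Emp2 and 1 Pdpn counts, the one well in which all 5 members were counted. At equal depth the expected number with both was 0.222 of 204 wells, beside 10.8 from the product over all wells and 1.11 summed within classes. Most of the distance from the product over all wells was thus present in the class shares themselves.

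Ager and Emp2 met more often than their shares over all wells gave, in 48 wells beside a product of 31.5. These 48 wells were 49.0% of the wells with Ager and 65.8% of those with Emp2. Summed within classes the product was 43.6. At equal depth 26.8 of 204 wells were expected to hold both, beside 23.9 summed within classes and 14.0 over all wells. In Sftpc wells alone the pair was found in 35 wells beside 34.7, and in remaining wells in 12 beside 8.17.

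For the other pairs the product is given within classes and summed. Ager and Aqp5 were found together in 69 wells beside 62.0, Aqp5 and Hopx in 59 beside 56.2, Aqp5 and Emp2 in 51 beside 47.3, and Aqp5 and Pdpn in 35 beside 35.7. The widest gap of the 10 pairs was that of Ager and Hopx, in 41 wells beside 33.4, followed by that of Ager and Aqp5. Both lay mostly in remaining wells, where 26 of 90 held Ager with Hopx and 25 held Ager with Aqp5, each beside a product of 19.8. At equal depth those remaining-well numbers were 13.3 beside 9.96 and 13.8 beside 9.81 of 86 wells. Over all 204 wells at equal depth the order of these pairs turned round. Ager with Aqp5 then had the wider gap, at 40.6 beside 34.6, against 21.9 beside 17.7 for Ager with Hopx. Hopx and Emp2 were found together in 27 wells beside 24.8, Hopx and Pdpn in 19 beside 17.8, and Emp2 and Pdpn in 12 beside 10.2. At equal depth Aqp5 with Hopx stood at 27.5 beside 26.5, Aqp5 with Emp2 at 23.7 beside 23.1 and Aqp5 with Pdpn at 15.4 beside 14.9. Hopx with Emp2 stood at 13.9 beside 11.8, Hopx with Pdpn at 7.12 beside 6.86 and Emp2 with Pdpn at 4.36 beside 3.42.

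**Figure D3:**
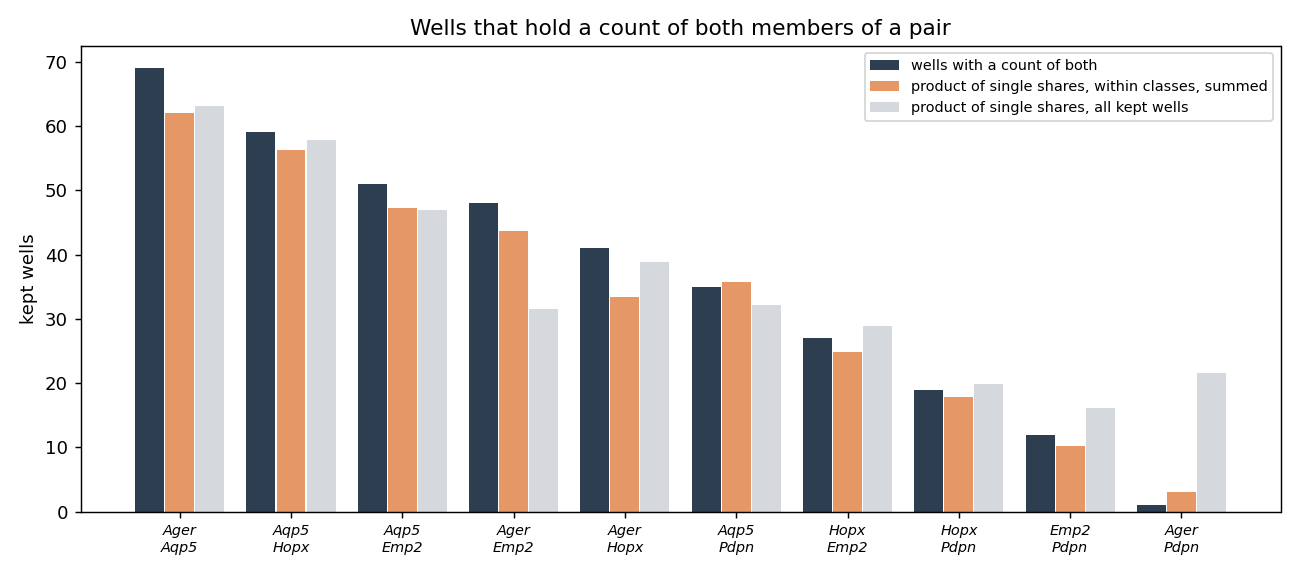
Number of the 227 kept wells with a count of both members of a pair (dark bars), beside the number given by the product of the single shares within classes, summed over the 3 classes (orange), and over all kept wells (grey). Ager with Pdpn was seen in 1 well beside 3.04 and 21.6, and against the within-class product the widest gap is that of Ager with Hopx, 41 wells beside 33.4.

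Counted per well, 156 of 227 wells (68.7%) held 2 or more members, where the product of shares over all kept wells gave 154. By class these were 53 of 63 Sftpc wells beside a product of 54.5, 50 of 74 Scgb3a1 wells beside 52.0 and 53 of 90 remaining wells beside 54.2. The share fell to 46.7% at equal depth, to 27.3% when a member needed 2 counts and to 11.0% when it needed 3. From 2 counts these were 62 wells beside a product of 62.4 over all kept wells, and from 3 counts 25 beside 20.7. By class the wells from 3 counts were 9 Sftpc wells beside 8.87, 5 Scgb3a1 wells beside 4.57 and 11 remaining wells beside 5.27. In remaining wells Ager with Aqp5 was then found in 6 wells and Aqp5 with Hopx in 5, each beside 1.60. At 1 count the commonest combination was Ager, Aqp5 and Emp2 in Sftpc wells (20 wells) and Aqp5 with Pdpn in Scgb3a1 wells (16 wells). In remaining wells no member at all was the commonest state (15 wells), ahead of Aqp5 alone and of Ager with Aqp5 and Hopx (12 wells each). Those 15 wells compare with 7.83 from the product, and their median total of 5272 counts was close to the 5406 of all remaining wells. Sftpc wells and Scgb3a1 wells with no member numbered 2 and 3.

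Most other genes of AT1 cells that were measured did not differ 2-fold between Sftpc wells and remaining wells. Of 36 further AT1 genes in the table, 21 were measured in that comparison, of which 3 were higher, 3 were lower and 15 were neither. Over all genes measured there, 17.4% were higher and 9.68% were lower. The median log2 ratio of the 21 was -0.21, against 0.18 over all genes. The claudin Cldn18, a tight junction protein that AT2 cells also make, was 32.4-fold higher (16.6 to 72.4) from 139 against 9 counts. The actin crosslinker Flna was 2.27-fold higher (1.27 to 4.07), but with TMM factors its ratio was 1.82, under the rule. The lipid transfer protein gene Sec14l3 was lower at a log2 ratio of -2.35, the sodium channel subunit Scnn1g at -2.15 and the metalloproteinase inhibitor Timp3 at -1.26. With TMM factors Cyp2b10 was lower too, at a ratio of 0.421.

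In Scgb3a1 wells over remaining wells 19 of these genes were measured, 0 were higher by the 2-fold rule (1 with TMM factors, Flna at 2.05) and 3 were lower, with a median log2 ratio of -0.47. No p-value applies to this count of 0, which TMM factors changed to 1. Over all genes in that comparison 8.13% were higher and 9.24% were lower. Lower were the small heat shock protein Cryab at -2.02, the adhesion molecule Icam1 at -1.81 and the cytochrome P450 Cyp2b10 at -1.50. Several genes that mark AT1 cells closely were at or near 0 in all classes. Igfbp2 and Spock2 had 0 counts in each class, Rtkn2 had 2, 1 and 0 counts in Sftpc, Scgb3a1 and remaining wells, and the caveolin Cav1 had 3, 1 and 0. Summed over the whole list of 36, single wells held 1557 to 13528 CPM in Sftpc wells, 1864 to 8782 CPM in Scgb3a1 wells and 1489 to 19196 CPM in remaining wells. Much of that sum was Sec14l3, with 101 of 944 list counts in Sftpc wells, 605 of 2090 in Scgb3a1 wells and 1084 of 2702 in remaining wells.

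**Figure D4:**
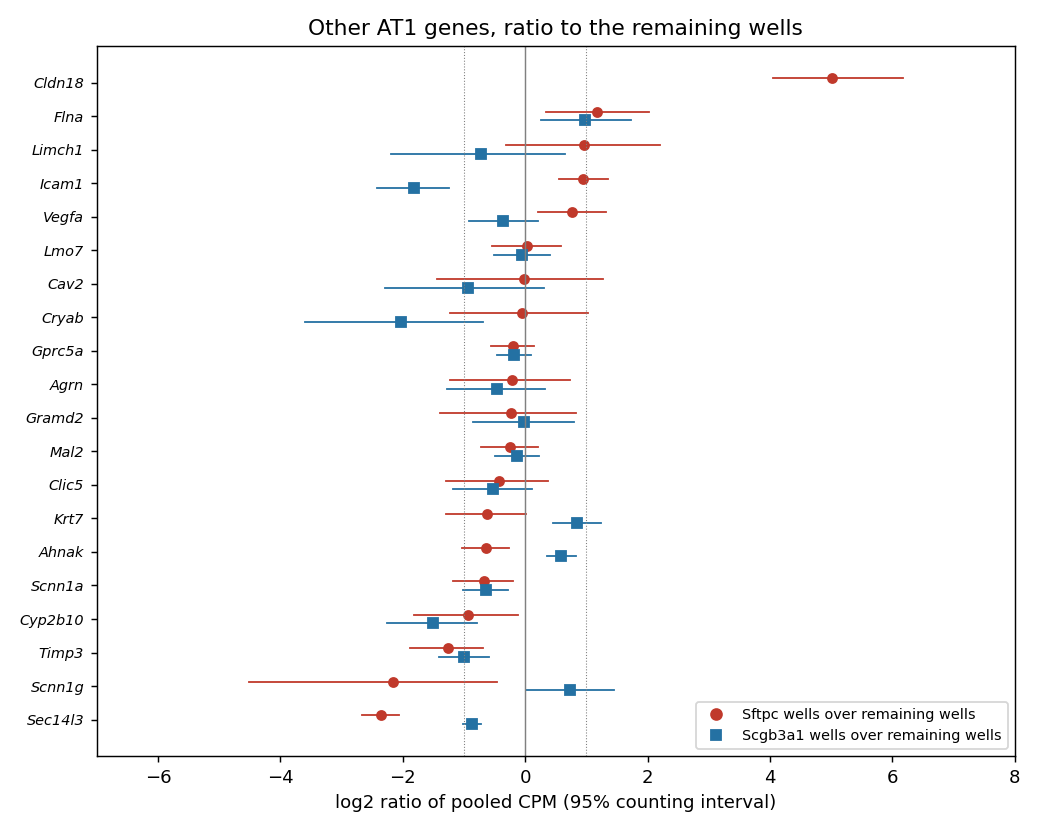
Log2 ratio of pooled CPM to the remaining wells for 20 of the 21 further AT1 genes measured, with 95% counting intervals. Red circles are Sftpc wells over remaining wells, blue squares Scgb3a1 wells over remaining wells, and dotted lines mark 2-fold. Cldn18 stands alone at a log2 ratio of 5.02 and most genes lie between the dotted lines.

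Ligands, family members and partners of the 5 markers were taken from lists. Their counts stand beside the shares over all genes, 17.4% higher and 9.68% lower in Sftpc wells and 8.13% higher and 9.24% lower in Scgb3a1 wells, and lists this short can be read only loosely against them. Among ligands of RAGE, 5 were measured in each comparison. In Sftpc wells, where Ager was highest, 0 were higher and 3 lower, namely S100a6 at a log2 ratio of -2.09, S100a11 at -1.06 and S100a13 at -1.08, the last from 7 against 31 counts with an interval that includes 0. With TMM factors S100a1 was lower too, at a ratio of 0.468. In Scgb3a1 wells, where Ager was almost absent, S100a6 was 6.25-fold higher (5.09 to 7.73) and S100a13 2.41-fold (1.57 to 3.79), and 0 were lower. Of the other aquaporins, 0 were measured in the first comparison, and 2 of 2 were higher in Scgb3a1 wells. These were Aqp3 with 28 against 0 counts, at least 6.99-fold higher by the counting interval, and Aqp4 at 2.15-fold (1.01 to 4.86).

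In the family of Emp2, Emp1 was lower in Sftpc wells at a log2 ratio of -2.01, the 1 of 2 measured genes past the rule there. Perp, a desmosome-associated member of the same family, was 6.50-fold higher in Scgb3a1 wells (3.76 to 12.0), the 1 of 3. On the list of podoplanin partners, Slc9a3r1, a scaffold of ezrin, was lower in Sftpc wells at -1.96, the 1 of 6 measured. Moesin, Msn, was lower in Scgb3a1 wells, where Pdpn was highest, at a ratio of 0.0603 (0.0120 to 0.187) from 3 against 49 counts, the 1 of 7 measured.

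Of the 6 HOPX partners, all measured, 3 were higher in Sftpc wells, where Hopx was low, beside 17.4% of all genes. The factor Gata6 was 4.90-fold higher (2.41 to 10.6), Nkx2-1 2.28-fold (1.50 to 3.46) and the deacetylase Hdac1 2.01-fold (1.09 to 3.72), while the serum response factor gene Srf was lower at -1.14. With TMM factors Nkx2-1 was at 1.83 and Hdac1 at 1.61, no longer 2-fold, and Gata6 kept its call. In Scgb3a1 wells 0 of the 6 were higher or lower. Of the YAP and TEAD list, whose proteins act in AT1 cell formation in the mouse, 0 of 5 measured genes passed the rule in Sftpc wells. In Scgb3a1 wells 1 of 7 did, the target Ctgf at 8.86-fold (3.18 to 34.3).

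Genes of transitional alveolar epithelium, the keratin-rich state between AT2 and AT1 cells seen in injured mouse lung, were measured for 11 genes. In Sftpc wells 1 was higher, the growth factor Areg at 5.19-fold, and 4 were lower, with the keratin Krt19 at -2.03 and the claudin Cldn4 at -3.93, beside 17.4% higher and 9.68% lower over all genes. With TMM factors Krt8 and Krt18 were lower too, at ratios of 0.436 and 0.453. In Scgb3a1 wells 5 were higher and 2 lower, with the galectin Lgals3 at 6.89-fold, the 14-3-3 protein Sfn at 2.86-fold, Krt19 at 2.64-fold and the keratin Krt8 at 2.03-fold, beside 8.13% higher and 9.24% lower over all genes. The lower genes were Areg at a log2 ratio of -4.27, from 1 against 19 counts, and the cell cycle inhibitor Cdkn1a at -1.85.

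The genes whose profile over the 227 wells was most like each member were taken by Pearson's r of log(1 + counts per 10000) among 1199 genes with at least 100 counts. For Ager they were Napsa (r = 0.75), Sftpc (0.74) and Lamp3 (0.73), genes of AT2 cells. For Pdpn they were the secreted proteins Bpifb1 (0.71) and Reg3g (0.71) and the ion transport regulator Fxyd3 (0.70). For Emp2 they were Cldn18 (0.46), Scd1 (0.42) and Rnase4 (0.41). For Hopx they were Cbr2 (0.31), Ces1d (0.31) and Gstm2 (0.30). For Aqp5 they were Ager (0.27), itself a member, Sfta3-ps (0.26) and H2-Aa (0.24). Values this low in sparse counts are not read as likeness. Within remaining wells r was 0.40 for Ager with Aqp5 and 0.31 for Ager with Hopx. In Sftpc wells those pairs were at 0.09 and 0.12, and in Scgb3a1 wells at -0.03 and 0.09. All values share wells, depth and the class structure.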

How the data were processed

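Poly(A)-primed single-cell libraries with molecular barcodes were made from wells with a sorted cell and from negative controls, per the labels' protocols. Reads were aligned with STAR to mm10, per the submitters' processing notes. The counting tool, the annotation and whether barcodes were collapsed are not given in the sources that were used. If they were not, copies from PCR were counted apart and the intervals are too narrow. The deposited file holds whole-number counts per gene symbol, not normalized by the authors; it holds 0 mitochondrial or spike-in rows.

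From these counts, pooled CPM with exact Poisson intervals, shares of wells (Clopper-Pearson) and ratios with exact conditional binomial intervals, all at 95%, were computed with Python 3.11.15, numpy 2.4.6, pandas 2.3.3 and scipy 1.17.1. TMM factors came from edgeR 4.0.16 in R 4.3.3, with no test, since all cells are 1 sample. Shares at equal depth are the exact chance that a well thinned to 3151 counts, the 10th percentile of kept totals, keeps a count; 23 shallower wells were left out. A count of 0 was read as up to 3 counts. Doublets were not called, the cells being few. The code for ratios was tested on simulated data.

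The members and all gene lists were chosen with earlier results of these data known. Apart from the members, genes were named where they were in a list, held at least 20 counts and passed 2-fold, up to 30 per comparison; those near 0, Krt15, Msln and genes outside that number were chosen after their values were seen. One list gene past the rule is not reported here. Alternatives were scaling, class limits, well filters, equal weight of wells, ciliated-marker wells, single wells and sets of 96 columns.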

Additional observations from a re-analysis of the deposited data

Results flagged for a closer look

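The 59 sorted wells removed for low totals, which entered no comparison of the report apart from the alternative filter of at least 1000 counts, held counts of 4 of the 5 members, while the negative controls held 0. There were 38 counts of Ager, 20 of Aqp5, 9 of Hopx, 12 of Emp2 and 0 of Pdpn among 60845 counts. By the same class limits 27 of these wells were Sftpc wells, 3 were Scgb3a1 wells and 29 were remaining wells. Ager was at 977 CPM in the removed Sftpc wells and 283 CPM in the removed remaining wells, from 31 and 7 counts, a ratio of 3.45 (1.49 to 9.29). Hopx was at 63.0 CPM and 283 CPM in those wells, from 2 and 7 counts, and its interval includes 1. The ratio was 1.56 (0.418 to 7.07) for Emp2, from 8 and 4 counts, under 2-fold. For Aqp5 it was 1.45 (0.537 to 4.28), from 13 and 7 counts, and both intervals include 1. The 3 removed Scgb3a1 wells held 4382 counts in all, too few to place Pdpn.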

How the results depend on the processing

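No paired analysis was possible because the numbers in the labels name single wells, and the negative controls that share the numbers 1 and 2 with sorted wells hold no cell. Of 164 values recomputed, 145 stayed within the counting interval of the reported value, or for counts of genes within 1.5 times, 18 moved and 1 ratio past 2-fold turned round. That one was Hopx in Sftpc wells over remaining wells within the first set, at 1.37. Of ratios under 2-fold, those of Emp2 and Aqp5 in Scgb3a1 wells over remaining wells also crossed 1, Emp2 at 3.30 within the middle set and 1.09 without the last, and Aqp5 in several settings, down to 0.924 without the first set. For Sftpc wells over remaining wells, the last set gave 2.97 for Ager, 1.28 for Aqp5, 0.159 for Hopx and 1.37 for Emp2. The middle set gave 8.98 for Emp2, from 11 against 4 counts. For Scgb3a1 wells over remaining wells, Emp2 was 0.307 within the first set and 0.161 without the middle set. Hopx was 0.144 within the last set, and Pdpn was 15.2 at a class limit of 2%. Within the middle set Pdpn was 19.4 from 66 against 0 counts, the 0 read as 3, and at least 15.3 by the counting interval. The causes were not tested.

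The number of genes past 2-fold was 1044 in Sftpc wells and 788 in Scgb3a1 wells. It was 5208 and 4309 with a minimum of 1 count and 357 and 255 with a minimum of 50. The share of wells with 2 or more members was 27.3% from 2 counts, 11.0% from 3 counts and 46.7% at equal depth. Leaving out wells at both class limits gave no value, as there were 0 such wells. Depth limits Pdpn in Sftpc wells to a bound, and the zeros of the shallow controls to little.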
